A study of Mus musculus with 4 samples.

Results

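The claudins and their tight junction partners described here are the 10 genes Cldn1, Cldn2, Cldn3, Cldn4, Cldn7, Cldn8, Cldn10, Ocln, Tjp1 and F11r. They were taken by gene symbol, 1 row each, from the 29190 rows of a table of kidney gene counts, and no measured value entered the choice. The kidneys came from 8-week-old male C57 mice injected with cisplatin at 30 mg/kg, a platinum drug that injures the renal tubule, or with physiological saline. Each group has 2 libraries, described in the series as biological replicates, and the sources used here do not say whether a library holds 1 mouse or a pool. The 18 mice of the study formed 3 groups, with cisplatin given either 24 h or 48 h before death, and the labels do not say which time applies to the cisplatin libraries. No genotype other than the strain is labelled. All values are whole-kidney RNA.

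Tight junctions seal the space between epithelial cells below their apical surface. Claudins are the membrane proteins that form the strands of the junction, and each nephron segment carries its own set: some form pores for cations, anions or water, and others tighten the barrier. Occludin and the junctional adhesion molecules lie in or beside the strands, and the zonula occludens proteins tie them to actin. In the kidney the claudin set of a segment sets how much salt and water passes between its cells.

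All 10 genes passed the filter on low counts and all 10 differed between cisplatin and saline, at an adjusted p under 0.05 in edgeR's quasi-likelihood test with Benjamini-Hochberg adjustment over 17419 genes. The change in this kidney was broad: 73.6% of all tested genes passed the same test, 37.2% as higher and 36.4% as lower, so 10 of 10 is to be read against that share. That split depends on scaling: 6487 genes were higher and 6333 lower here, against 9110 and 4207 with library size alone. Of the 10 genes, 7 were higher after cisplatin (Cldn4, Cldn3, Cldn7, F11r, Tjp1, Ocln and Cldn1) and 3 were lower (Cldn2, Cldn10 and Cldn8). The groups did not overlap for any of the 10, as for 86.3% of tested genes. A called change of at least 2-fold was found for 6 of the 10, against 35.3% of tested genes: 3 were higher, against 19.2%, and 3 lower, against 16.1%. The median log2 fold change was 0.72 over the 10 genes and 0.042 over all tested genes. In whole tissue, fewer cells of a type and less RNA per cell cannot be told apart.

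The 4 libraries held 20662475 and 23150274 counts for cisplatin and 21483564 and 27122403 for saline, so that 3 counts correspond to between 0.115 and 0.162 CPM. Levels of a gene across libraries are given below as CPM, that is counts scaled to a common library size, adjusted by the trimmed mean of M-values (TMM). Levels of different genes are compared only as the deposited FPKM, which is per transcript length.

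**Figure D1:**
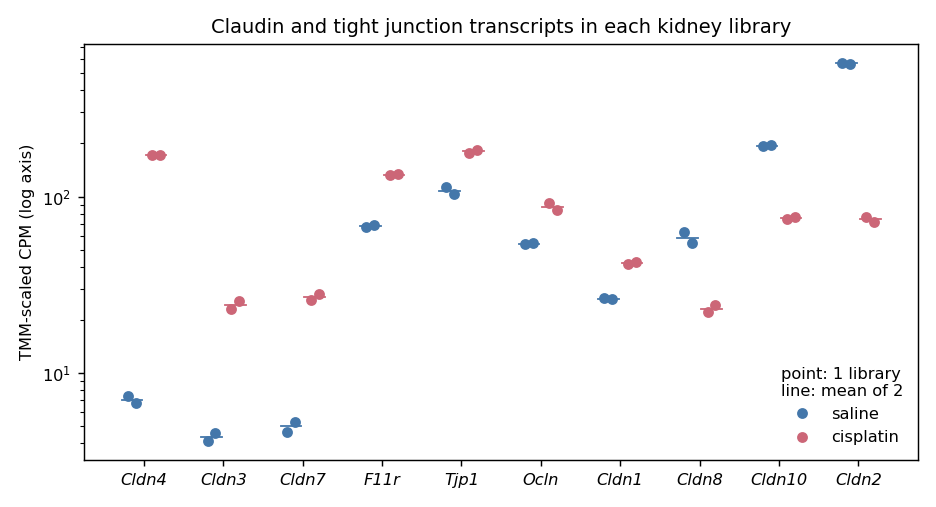
TMM-scaled CPM (log axis) of the 10 genes in each library, ordered by fold change; each point is 1 library and each line the mean of 2. Cldn4 stands at 172 and 173 CPM in the cisplatin libraries against 7.36 and 6.72 in saline, and Cldn2 moves the other way, from 572 and 564 to 76.3 and 72.0.

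Cldn2, which forms the cation and water pore of the leaky proximal tubule, lies at chrX:139800828-139811386 on the plus strand of GRCm38. It stood at 572 and 564 CPM in saline and at 76.3 and 72.0 CPM after cisplatin. Both cisplatin values lay far below both saline values. The mean fell from 568 ± 5.91 to 74.2 ± 3.04 CPM (SD, n = 2 libraries per group), which was 7.66-fold lower (log2 fold change -2.94, SE 0.06, edgeR adjusted p = 1.59e-18). Of all 17419 tested genes, 267 had a lower log2 fold change.

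Cldn10, whose isoforms form anion pores in the proximal tubule and cation pores in the thick ascending limb, lies at chr14:118787908-118875489 on the plus strand. Its level was 193 and 195 CPM in saline and 74.9 and 76.4 CPM after cisplatin. The replicates of each group lay close together and the groups were far apart. The gene was 2.56-fold lower after cisplatin (log2 fold change -1.36, SE 0.06, edgeR adjusted p = 3.72e-14). RefSeq gives it 2 start sites, and counts per gene cannot separate its isoforms.

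Cldn8 is a claudin of the distal nephron and collecting duct, where it is known as a partner of Cldn4. It is a single-exon gene at chr16:88560828-88563183 on the minus strand. It stood at 62.8 and 54.3 CPM in saline and at 22.1 and 24.2 CPM after cisplatin. The saline libraries differed from each other more than the cisplatin libraries did, and the groups did not overlap. The gene fell by 1.33 on the log2 scale (SE 0.08, edgeR adjusted p = 2.25e-11), a 2.52-fold lower level.

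Cldn4 is a claudin of tight epithelia, found in the collecting duct, where it is known for limiting sodium and passing chloride between cells. It is a single-exon gene at chr5:134945119-134946934 on the minus strand. Its counts were 136 and 164 in saline and 4080 and 4483 after cisplatin. On the CPM scale these were 172 and 173 after cisplatin and 7.36 and 6.72 in saline, with the groups far apart. The gene was 24.6-fold higher (log2 fold change 4.62, SE 0.07, edgeR adjusted p = 4.02e-20), and 218 tested genes had a higher log2 fold change.

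Cldn3, a barrier-forming claudin of the same epithelia, lies on chromosome 5 at chr5:134986214-134987472 on the plus strand. It begins 39.3 kb beyond Cldn4, with 0 protein-coding genes between them in the annotation. Cldn3 stood at 4.11 and 4.55 CPM in saline and at 22.9 and 25.7 CPM after cisplatin. Both cisplatin libraries were high, and the gene was 5.59-fold higher (log2 fold change 2.48, SE 0.13, edgeR adjusted p = 7.46e-13). The antisense gene Wbscr25 shares 40 exon bases with Cldn3, which is 3.18% of its exon length, and had at most 13 counts in a library.

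Cldn7, found on the lateral membranes of distal and collecting duct cells, lies at chr11:69964779-69967885 on the plus strand. It stood at 4.65 and 5.29 CPM in saline and at 26.0 and 28.2 CPM after cisplatin. As for Cldn3, no saline library came near a cisplatin library. The gene was 5.41-fold higher (log2 fold change 2.44, SE 0.12, edgeR adjusted p = 4.11e-13). The FPKM of Cldn3 divided by that of Cldn7 was 1.04 and 1.07 after cisplatin and 1.04 and 1.01 in saline, a ratio that hardly differed between the groups. With counts per kilobase of annotated exon, an alternative chosen after the data were seen, the ratio was 1.37 and 1.41 after cisplatin and 1.37 and 1.33 in saline, so that the level of the ratio rests on the transcript length used. The ratio of Cldn4 to Cldn3 did differ: the FPKM of Cldn4 was 1.24 and 1.02 times that of Cldn3 in saline and 5.20 and 4.66 times after cisplatin.

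Cldn1, a sealing claudin known in the parietal epithelium of Bowman's capsule, lies at chr16:26356642-26371841 on the minus strand. It stood at 26.5 and 26.3 CPM in saline and at 41.5 and 42.7 CPM after cisplatin. The difference was small beside that of Cldn4, but the groups did not overlap. The gene was 1.60-fold higher (log2 fold change 0.68, SE 0.08, edgeR adjusted p = 2.10e-07).

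The start sites of the 4 claudins among these 10 genes that moved most are shown because these genes went in opposite directions. The RefSeq windows on GRCm38.p6 run from 250 bases before to 50 bases after the start, and 9 of the 10 genes had at least 1, with 12 windows in all. They are written 5′ to 3′ on the strand of the gene. In the windows of Cldn4 (chr5:134946885-134947184, minus strand), Cldn3 (chr5:134985964-134986263, plus strand) and the second start of Cldn7 (chr11:69965171-69965470, plus strand), capitals mark TGANTCA, the AP-1 motif, and CAGGTG, the E-box bound by Snail and Zeb, searched on both strands. In the window of Cldn2 (chrX:139800558-139800857, plus strand) capitals mark the TATA box TATAAA.
Cldn4: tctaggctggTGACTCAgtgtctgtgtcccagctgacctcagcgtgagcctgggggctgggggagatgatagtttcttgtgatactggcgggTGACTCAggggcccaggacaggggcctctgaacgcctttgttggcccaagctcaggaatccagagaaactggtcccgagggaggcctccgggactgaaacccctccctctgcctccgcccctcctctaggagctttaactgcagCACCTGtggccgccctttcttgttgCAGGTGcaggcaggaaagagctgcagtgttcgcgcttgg
Cldn3: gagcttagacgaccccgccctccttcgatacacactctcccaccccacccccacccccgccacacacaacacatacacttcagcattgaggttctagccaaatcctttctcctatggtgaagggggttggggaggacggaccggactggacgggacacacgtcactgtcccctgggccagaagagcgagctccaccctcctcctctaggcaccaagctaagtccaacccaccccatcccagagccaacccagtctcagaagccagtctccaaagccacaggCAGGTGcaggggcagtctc
Cldn7, second start: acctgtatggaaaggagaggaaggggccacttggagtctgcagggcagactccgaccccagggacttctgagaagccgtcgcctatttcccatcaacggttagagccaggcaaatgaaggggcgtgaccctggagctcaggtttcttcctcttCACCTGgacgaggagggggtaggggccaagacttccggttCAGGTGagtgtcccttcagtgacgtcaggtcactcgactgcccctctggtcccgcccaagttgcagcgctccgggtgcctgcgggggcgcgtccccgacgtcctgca
Cldn2: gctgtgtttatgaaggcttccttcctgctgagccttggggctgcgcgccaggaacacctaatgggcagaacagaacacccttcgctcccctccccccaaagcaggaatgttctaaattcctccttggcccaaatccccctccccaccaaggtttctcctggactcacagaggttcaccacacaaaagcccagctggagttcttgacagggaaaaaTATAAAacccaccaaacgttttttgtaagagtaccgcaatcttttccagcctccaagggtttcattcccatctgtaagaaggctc

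The Cldn4 window held 2 matches to TGANTCA, a number reached or passed by 0.46% of all 32851 windows, and 7.81% held at least 1. It also held 2 matches to CAGGTG, as did the second start of Cldn7, while Cldn3 held 1. The first start of Cldn7, not shown, held 0 matches to any motif searched. A match to CAGGTG occurred in 6 of the 12 windows and in 20.2% of all windows. These 6 windows belong to 5 genes, since the 2 windows of Ocln overlap and share 1 of these sites. TGANTCA occurred in 2 of the 12 windows, the other being that of F11r. TATAAA occurred in 1 of the 12 windows, that of Cldn2, and in 13.6% of all windows. GGGCGG, the GC box, occurred in 9 of 12 and in 35.7% of all windows. AACCGGTT, the Grainyhead motif, occurred in 0 of 12 and in 0.146% of all windows. No matches of different motifs searched overlapped in these 12 windows. The windows without a GC box had 51.3% (Cldn2), 52.0% (first start of Cldn7) and 36.0% G or C (first start of Cldn10). The other windows of these genes had 56.0% to 72.0%, and the median over all 32851 windows was 52.7%. The comparisons with all windows were not adjusted for base composition. A match describes the letters only.

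Occludin, the tetraspan protein of the strands encoded by Ocln at chr13:100496507-100552718 on the minus strand, stood at 54.1 and 54.2 CPM in saline and at 91.6 and 83.9 CPM after cisplatin. The cisplatin libraries were both higher, and the gene was 1.62-fold higher (log2 fold change 0.70, SE 0.06, edgeR adjusted p = 2.97e-09). Tjp1 encodes ZO-1, the scaffold that links claudins and occludin to actin, and lies at chr7:65296165-65527781 on the minus strand. Its level was 113 and 103 CPM in saline and 178 and 184 CPM after cisplatin. The groups did not overlap, and the gene was 1.67-fold higher (log2 fold change 0.74, SE 0.06, edgeR adjusted p = 1.44e-09).

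F11r encodes JAM-A, a junctional adhesion molecule, and lies at chr1:171437535-171464603 on the plus strand. It stood at 67.2 and 69.3 CPM in saline and at 132 and 134 CPM after cisplatin. Both groups were tight and well apart, and the gene was 1.95-fold higher (log2 fold change 0.96, SE 0.06, edgeR adjusted p = 4.99e-12). The FPKM of Ocln divided by that of Tjp1 was 0.799 and 0.881 in saline and 0.861 and 0.763 after cisplatin, so the groups overlapped for this ratio.

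**Figure D2:**
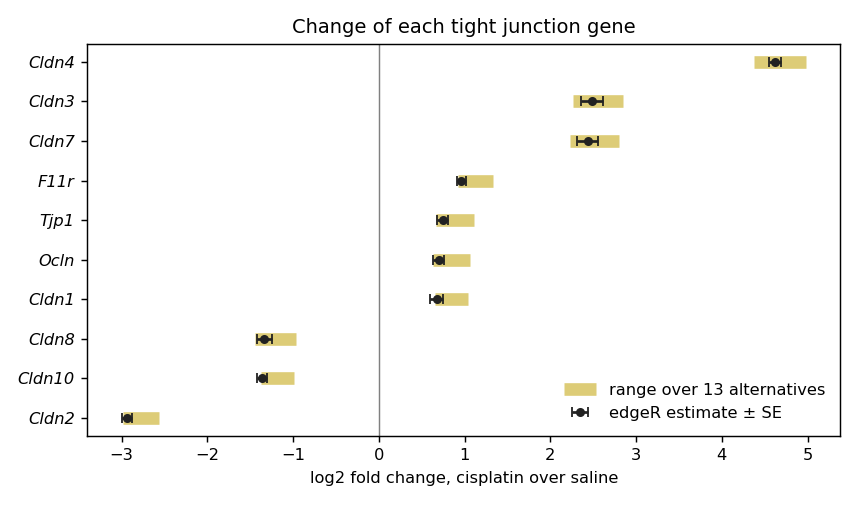
Log2 fold change of the 10 genes, cisplatin over saline: points are the edgeR estimates with their standard errors, and bars span 13 alternative settings. No bar reaches 0; the estimates run from 4.62 for Cldn4 to -2.94 for Cldn2.

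Per transcript length, Cldn2 led the saline kidneys with 107 ± 6.18 FPKM and Cldn10 followed with 43.0 ± 3.20 (SD, n = 2). Then came F11r with 15.6 ± 1.40 FPKM, Cldn8 with 14.2 ± 0.509, Tjp1 at 8.79 in both libraries, Ocln with 7.38 ± 0.509 and Cldn1 with 4.67 ± 0.290. Cldn4, Cldn3 and Cldn7 were lowest, between 1.72 and 2.23 FPKM in the libraries. In that order the libraries overlapped only between the neighbours Cldn3 and Cldn7, although the lower F11r value of 14.61 lay just above the higher Cldn8 value of 14.60.

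After cisplatin the order was different. Cldn4 led with 65.8 ± 0.615 FPKM, followed by F11r at 36.61 in both libraries and Cldn10 with 20.2 ± 0.0354. Tjp1 had 17.7 ± 0.191 FPKM and Cldn2 16.9 ± 0.905. Ocln, Cldn3 and Cldn7 lay between 12.3 and 15.2 FPKM, each overlapping the next in its libraries. Cldn1 had 8.99 ± 0.0778 FPKM and Cldn8 6.80 ± 0.368. These orders rest in part on the lengths behind the deposited FPKM. By counts per kilobase of annotated exon Cldn1 stood below Cldn8 in both cisplatin libraries, at 0.915 and 0.859 times its level, and Tjp1 was above Cldn2 in only 1 of the 2. In saline F11r was above Cldn8 in 1 of the 2, while Cldn3 was above Cldn7 in both.

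The makeup of the claudin transcripts differed between the groups. The summed FPKM of the 24 claudin rows was 204.6 and 221.2 in saline and 184.5 and 186.4 after cisplatin, lower in both cisplatin libraries. The FPKM were used as deposited, without the TMM factors, so the size of that drop depends on the scaling. As TMM-scaled CPM, which are not per length, the 7 claudins among the 10 genes summed to 856 to 871 in saline and 436 to 442 after cisplatin. The 17 further claudin rows summed to 208 to 212 and to 166 to 168 CPM. Cldn2 made up 50.3% and 50.5% of the summed FPKM in saline and 9.50% and 8.72% after cisplatin. Cldn4 made up 1.09% and 1.01% in saline and 35.9% and 35.1% after cisplatin. By mean share Cldn4 thus went from the 10th to the 1st place among claudins and Cldn2 from the 1st to the 3rd. The 10th place did not hold in both libraries, since in saline replicate 1 Cldn4 (1.09%) lay above Cldn5 and Cldn19 (1.06% each). The share of Cldn10 went from 20.2% to 10.9%, that of Cldn3 from 0.930% to 7.22% and that of Cldn7 from 0.909% to 6.85%. With 2 libraries per group an exact permutation test cannot pass 0.05, so these shares are given without one. Within a library, the FPKM of Cldn4 was 0.0216 and 0.0200 times that of Cldn2 in saline and 3.78 and 4.02 times after cisplatin.

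**Figure D3:**
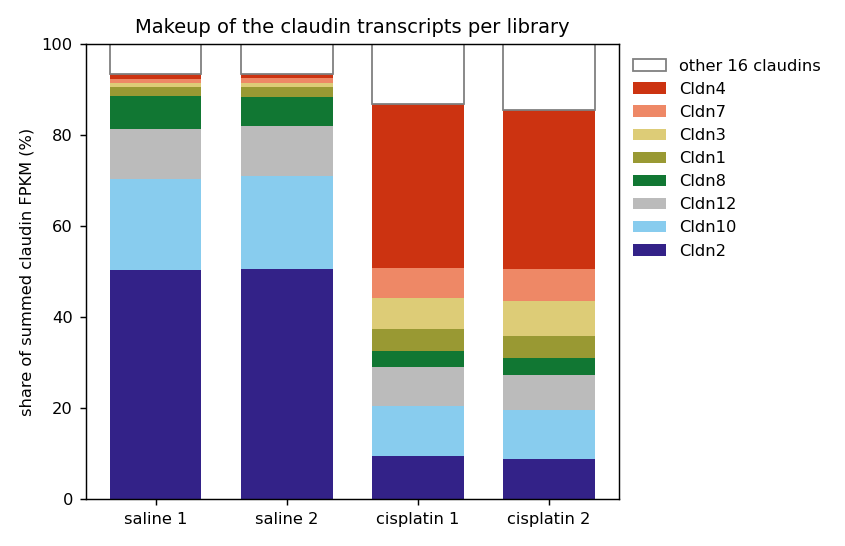
Share of the summed claudin FPKM in each library (percent, stacked to 100); the top segment holds the other 16 claudin rows. The Cldn2 segment takes 50.3% and 50.5% in saline and 9.50% and 8.72% after cisplatin, where Cldn4 takes 35.9% and 35.1%.

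Of 17 further claudin rows, 10 passed the filter on low counts, 6 of them higher after cisplatin and 4 lower, beside 37.2% and 36.4% of all tested genes. Among the lower ones, Cldn18 and Cldn34c1, named after their values were seen, lost their call with scaling by library size alone (edgeR adjusted p = 0.0979 and 0.0657). Cldn18 had few counts, 21 and 25 in saline and 8 and 16 after cisplatin. Cldn16 and Cldn19 form the magnesium and calcium path of the thick ascending limb, and they went in opposite directions. Cldn16 stood at 11.3 and 9.26 CPM in saline and at 5.31 and 6.40 CPM after cisplatin (log2 fold change -0.80, SE 0.15, edgeR adjusted p = 0.000117). Cldn19 stood at 16.8 and 17.1 CPM in saline and at 32.9 and 34.4 CPM after cisplatin (log2 fold change 0.99, SE 0.09, edgeR adjusted p = 6.64e-09). In both genes the groups did not overlap.

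Cldn23 had 0 and 5 counts in saline and 122 and 148 after cisplatin. Its fitted log2 fold change of 5.48 (SE 0.43) rests on these few saline counts and was 4.68 without saline replicate 1 and 9.95 without saline replicate 2, where the remaining library has 0 counts. Cldn6, a claudin of embryonic epithelia, had 11 and 10 counts in saline and 45 and 67 after cisplatin (log2 fold change 2.18, SE 0.37, edgeR adjusted p = 2.84e-05). The following claudins were named after their values were seen. Cldn12, the third claudin of the saline kidney by FPKM share, was lower (log2 fold change -0.93, SE 0.06), and Cldn15, another pore former, was higher (1.05, SE 0.11). Cldn5, the claudin of endothelium, was also higher (0.85, SE 0.15).

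The other tight junction, polarity and scaffold genes formed a list of 65 symbols, 58 of them in the table and 51 tested, the 10 tested claudin rows above among them. Of the 51, 29 were higher after cisplatin, 20 were lower and 2 (Pard6a and Pard6g) did not pass the test. That is 96.1% called, beside 73.6% of all tested genes, with a median log2 fold change of 0.35. With scaling by library size alone the split of this list was 30 higher and 13 lower.

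Adhesion and tricellular junction genes were among the higher ones. Lsr, which encodes the tricellular junction protein angulin-1, rose from 15.4 ± 0.376 to 44.7 ± 3.35 CPM (log2 fold change 1.54). Jam2 rose from 8.96 ± 0.657 to 31.0 ± 1.93 CPM (1.78), and Esam, an adhesion molecule of endothelium, from 15.1 ± 1.11 to 42.9 ± 2.81 CPM (1.50). Other genes of these families fell. Jam3 fell from 37.0 ± 4.12 to 16.2 ± 1.28 CPM (-1.20), and Ildr2, which encodes angulin-3, from 187 ± 4.12 to 69.2 ± 1.22 CPM (-1.43). A further 3 more, named after their values were seen, were higher: Ildr1, which encodes angulin-2 (0.63), Marveld2, which encodes tricellulin (0.63), and Cxadr (1.01).

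Genes of the cytoplasmic plaque also moved both ways. Ybx3, a ZO-1-binding transcription factor, rose from 25.9 ± 0.0603 to 74.3 ± 0.459 CPM (log2 fold change 1.52). Tjap1 rose by 1.39 and Amotl2, an angiomotin-like scaffold, by 1.33. The related Amot fell by 1.04. Of the polarity genes, Prkcz, an atypical protein kinase C, fell from 93.8 ± 1.60 to 17.8 ± 0.412 CPM (-2.40), and Pard3, its partner, fell by 1.24. Other polarity genes, named here after their values were seen, went in both directions. Crb2 (1.23), Llgl1 (1.08), Pard6b (1.02), Scrib (0.64), Llgl2 (0.55), the other atypical kinase Prkci (0.35) and Crb3 (0.27) were higher. Inadl (-1.03), Mpp5 (-0.85) and Dlg1 (-0.58) were lower. Magi1 fell by 1.61, Cgnl1 (paracingulin) by 1.55 and Wnk1, a kinase of distal salt handling, by 1.10. All these genes, from Lsr to Wnk1, passed the edgeR test.

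Close relatives of these genes were named after their values were seen. Cgn, which encodes cingulin, was higher (log2 fold change 1.15, SE 0.08), unlike Cgnl1. Tjp3, a zonula occludens gene, was slightly lower (-0.34, edgeR adjusted p = 0.0349), stood at 0.022 with scaling by library size alone and lost its call in 7 further settings, leaving out cisplatin replicate 2 (-0.24), saline replicate 1 (-0.36) or saline replicate 2 (-0.34) among them.

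**Figure D4:**
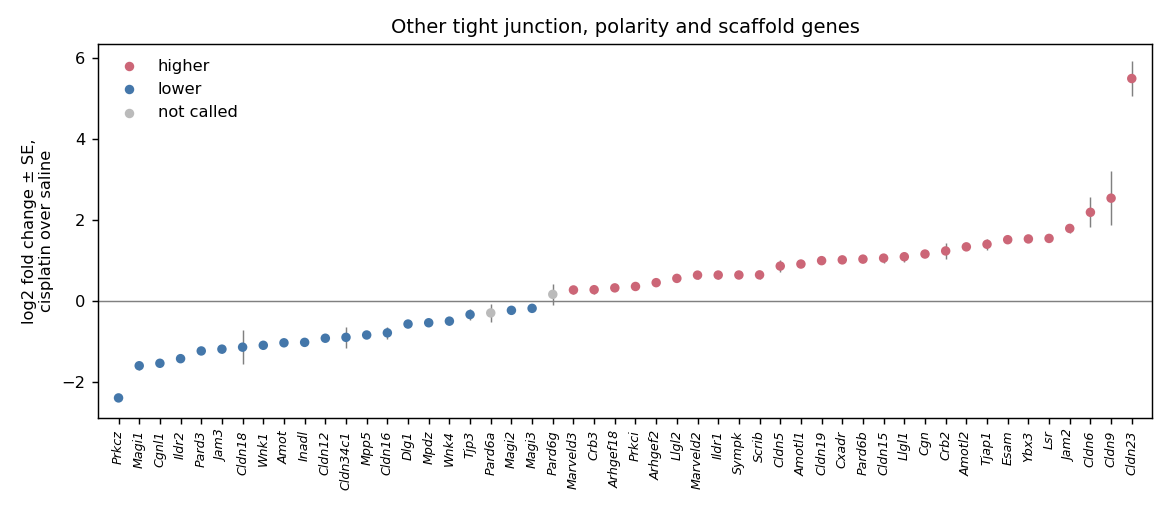
Log2 fold change with standard error, cisplatin over saline, of 50 of the 51 tested genes of the tight junction, polarity and scaffold list, coloured by the edgeR call. The 29 higher genes of the whole list include Cldn23, Jam2 and Lsr, and the 20 lower ones Prkcz, Magi1 and Cgnl1; scaling by library size alone gives 30 and 13.

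Transcription factors known to act on claudin genes or on epithelial junctions formed a list of 14, of which 13 were tested, with 6 higher, 4 lower and 3 not called. That is 76.9% called, near the 73.6% of all tested genes. Among the factors of epithelial differentiation, Elf3 rose from 6.16 ± 0.446 to 25.3 ± 1.14 CPM (log2 fold change 2.03, SE 0.12), and Grhl1 rose by 1.97 (SE 0.27). Grhl2, a known activator of Cldn4 in renal collecting duct cells, rose by 0.94 (SE 0.11), and Ehf by 0.94 (SE 0.07). Ovol1 fell by 1.09 (SE 0.15), and Ovol2 stood at 0.15 (edgeR adjusted p = 0.709).

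The proximal tubule factor Hnf4a fell from 709 ± 22.8 to 119 ± 1.14 CPM (log2 fold change -2.57, SE 0.06). Among repressors of epithelial junction genes, Snai1 rose from 7 and 8 counts to 30 and 42 (2.03, SE 0.42, edgeR adjusted p = 0.000239). Zeb1 was higher (0.40) and Zeb2 lower (-0.42), the latter not past the test with scaling by library size alone or on the FPKM. Snai2 (-0.049, edgeR adjusted p = 0.882) and Twist1 (0.34, edgeR adjusted p = 0.527) did not pass the test. Grhl3 was too low to be tested.

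Markers of the nephron segments in which these claudins are known moved as well, and their counts are to be read against 37.2% higher and 36.4% lower of all tested genes. All 15 proximal tubule markers were lower, with a median log2 fold change of -2.43, beside -2.94 for Cldn2. Their summed level was 48713 to 50622 CPM in saline and 18231 to 18817 CPM after cisplatin. Kap, named after its values were seen, made up most of the cisplatin sum. It went from 25836 and 23592 CPM in saline to 14781 and 14242 CPM after cisplatin. Its fall (log2 fold change -0.77) was smaller than that of any other marker of this list. Slc5a12 (-4.71) and Slc7a7 (-4.48) had the smallest p. All 7 thick limb markers were lower (median -1.51), with a summed level of 7149 to 7253 CPM in saline and 2264 to 2339 CPM after cisplatin. Of the 6 markers of the distal convoluted and connecting tubule 5 were lower (median -1.88, 1224 CPM in both saline libraries and 329 to 348 CPM after cisplatin).

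The 9 principal cell markers of the collecting duct, which carries Cldn4 and Cldn8, split into 4 higher and 4 lower, with a median of 0.0039. Their summed level was 287 to 294 CPM in saline and 230.0 to 240.1 CPM after cisplatin. Aqp2, the vasopressin-regulated water channel, was higher (log2 fold change 0.68), Aqp3 was lower (-1.64) and Aqp4 stood at 0.0039; these 3 were named after their values were seen. Of 7 intercalated cell markers 6 were lower and 0 higher (median -2.02), with a summed level of 299 to 302 CPM in saline and 92.8 to 99.0 CPM after cisplatin. Of the 5 tested of 6 thin limb markers 4 were higher and 1 was lower (median 1.71). The lower one, Aqp1, is also a proximal tubule marker and went from between 662 and 697 to between 359 and 360.2 CPM, while the other 4 together went from between 41.4 and 48.7 to between 167 and 171 CPM.

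Cells outside the tubule that carry claudins of their own were also checked. Urothelium, which carries Cldn4, Cldn3 and Cldn7, had 10 markers, 8 of them tested, 4 higher and 1 lower. Their summed level was 4.004 to 4.057 CPM in saline and 16.03 to 16.12 CPM after cisplatin. Krt5, the basal keratin, made up most of that difference. It went from 2 and 1 counts to 227 and 235, that is from 0.108 and 0.0410 CPM to 9.57 and 9.06 CPM. The uroplakin Upk3b rose from a mean of 0.632 to 3.35 CPM. Of the uroplakins tested, Upk1a fell from 0.910 to 0.405 CPM, and Upk1b (log2 fold change -0.85) and Upk3a (-0.81) did not pass the test; these 3 were named after their values were seen. In the 4 markers of parietal epithelium, which carries Cldn1, 3 were higher and 0 lower, with a summed level of 111 to 112 CPM in saline and 444 to 458 CPM after cisplatin. Akap12, with 35.6 to 38.2 CPM in saline and 335 to 342 CPM after cisplatin, made up most of that difference, and the other 3 together went from between 74.1 and 75.4 to between 109 and 116 CPM.

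Of 8 endothelial markers 6 were higher and 1 lower (median 0.71, 645 to 650 CPM in saline and 852 to 866 CPM after cisplatin), and all 6 podocyte markers were higher (median 0.87, 398 to 401 CPM and 609 to 634 CPM). Fibroblast and mural cell markers were higher in 6 of 7 (median 1.50, 342 to 363 CPM and 1161 to 1164 CPM). The blood cell lists follow. Macrophage and monocyte markers were higher in 5 of 7 and lower in 1 (71.0 to 76.2 CPM and 205 to 219 CPM). All 5 tested of 7 neutrophil markers were higher (2.83 to 4.11 CPM and 29.6 to 31.7 CPM), and of the 5 tested of 7 lymphocyte markers 2 were higher (3.07 to 4.06 CPM and 4.86 to 5.10 CPM). No marker of these lists was at 0 in all 4 libraries. The part of cell makeup in the claudin values was not tested.

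**Figure D5:**
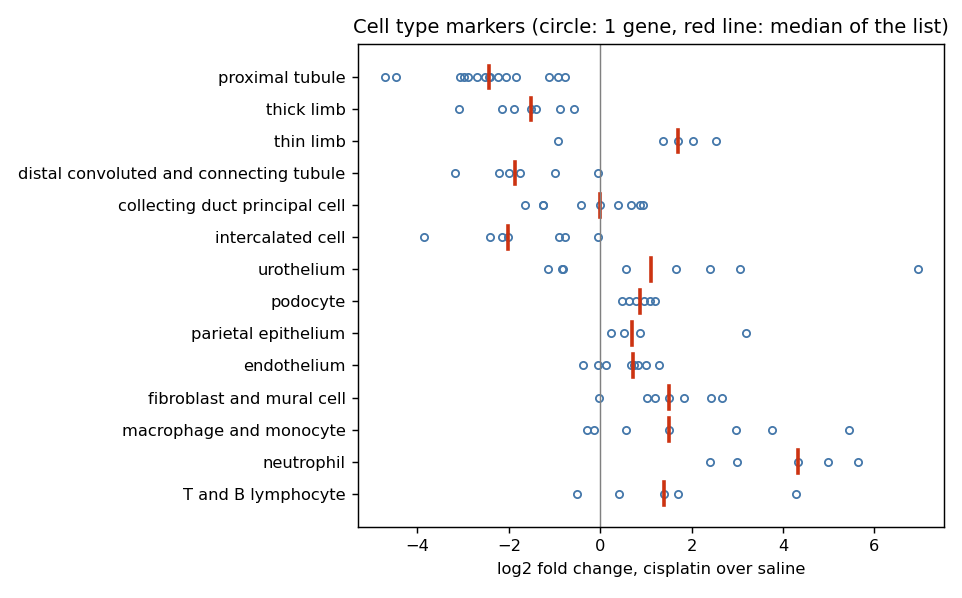
Log2 fold change, cisplatin over saline, of the tested markers of each cell type list, with claudins and tight junction genes taken out; each circle is 1 gene and each red line the median of its list. The proximal tubule list lies wholly below 0 with a median of -2.43, and the principal cell list is spread about a median of 0.0039.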

How the data were processed

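Kidney total RNA from 2 cisplatin and 2 saline libraries was depleted of ribosomal RNA and sequenced as directional 150 nt paired reads, per the labels' protocols. The authors deposited raw counts per gene for 29190 rows and FPKM values for 29157 rows, which are fragments scaled by transcript length and library depth. Per the submitters' processing notes, the build was GRCm38 and bcl2fastq, TopHat2 and edgeR were among the tools (no versions). How reads were counted, whether strand was used and from which annotation is not given in the sources, so reads shared with antisense or overlapping genes could not be reassigned. Groups come from the treatment labels.

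The test across genes used edgeR 4.0.16 (R 4.3.3): filterByExpr, TMM factors (0.86 and 0.90 for saline, 1.15 and 1.12 for cisplatin), glmQLFit and glmQLFTest with no covariate, and Benjamini-Hochberg adjustment over all 17419 tested genes. Calls needed an adjusted p under 0.05. The deposited FPKM values served for levels between genes and shares. The p-values set the difference between groups against the spread between the 2 libraries of a group. The estimate of that spread for a gene borrows from all 17419 tested genes. A library may hold 1 mouse or a pool, so this spread need not be that between mice. Floors of 3 counts cover counting error only. DESeq2 1.42.0, limma 3.58.1, other scalings and filters, a replicate block and leaving out each library were alternatives. Named beyond the 10 genes were up to 8 called genes per direction of the tight junction list that averaged 1 CPM or more and moved by at least 1 on the log2 scale, Cldn16, Cldn19, the regulators and up to 2 markers per cell type list. Some genes counted in these lists are not reported here. Other genes are said to be named after their values were seen. The genes and lists were chosen with earlier results of these data known. Coordinates are from GENCODE M21, in which 99.2% of the gene identifiers were found without their version, and promoter windows from RefSeq. The code was tested on simulated data in which few genes changed, so that test does not bear on scaling under a broad change. It called 61.2% of the 1.5-fold and 85.4% of the 2-fold changes in the right direction. Same-numbered libraries did not deviate together (correlation -0.02), so the numbers were not taken as pairs.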

Additional observations from a re-analysis of the deposited data

How the results depend on the processing

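The 10 genes kept their direction and their call in all 130 combinations of gene and alternative setting (13 settings each), with a largest adjusted p of 0.00515 and a log2 fold change of 4.37 to 4.98 for Cldn4 and -2.98 to -2.57 for Cldn2. With the replicate number as a block 7 of the 10 were higher and 3 lower, the other tight junction list gave 29 and 20, and all genes gave 6382 and 6271; the block changed no call of the 10. Scaling by library size alone moved the median of all genes from 0.042 to 0.41, and gave 9110 higher and 4207 lower genes against 6487 and 6333. The FPKM gave 7258 higher and 3804 lower with a pseudocount of 0.1, and 7319 and 3784 with 1. For the other tight junction genes the lower calls were 13, 12 and 12 under these 3 settings. Leaving out 1 library gave 27 to 28 higher and 17 to 19 lower genes of that list, and 5622 to 6237 and 5868 to 6267 over all genes, with fewer samples in the fit and the lone library assumed to vary like the other group. The saline share of Cldn2 was 49.2% with counts per kilobase and 61.2% among the 7 claudins alone, and its cisplatin share among those was 11.7%. The Cldn4 share in saline was 1.12% and 1.27% in these settings, and in cisplatin 37.4% and 45.4%. The ratio of Cldn3 to Cldn7 averaged 1.05 after cisplatin and 1.02 in saline on the FPKM, and 1.39 and 1.35 per kilobase of exon, a setting added after the data were seen. Leaving out 1 library gave 50.3% to 50.5% and 8.72% to 9.50% for Cldn2 and 1.01% to 1.09% and 35.1% to 35.9% for Cldn4. Directions reversed for genes near 0, Ovol2, Snai2 and Tjp3 among them. Ovol2 ran from -0.15 to 0.39 when 1 library was left out. Snai2 ran from -0.24 to 0.11 likewise, and stood at 0.067 under the upper quartile, 0.32 unscaled beyond library size, and 0.19 and 0.078 on the FPKM. Tjp3 stood at 0.022 with library size alone. Magi3, Magi2 and Pard6a, named after their values were seen, also changed sign with library size alone. Magi3 passed the test on both sides, at -0.19 in the main fit (edgeR adjusted p = 0.0118) and at 0.18 with library size alone (edgeR adjusted p = 0.0374). Magi2 went from -0.24 to 0.13 and Pard6a from -0.30 to 0.063. The cause of these reversals was not tested. The 2 libraries per group limit the precision, and genes with few counts, such as Cldn23, Cldn6 and Snai1, have wide errors.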
